A study of Mus musculus with 2 samples.

Results

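The transcripts of 33 sterol and fatty acid synthesis genes were followed across the cell classes of mouse pancreas at embryonic day 18.5. The genes were chosen by symbol as a fixed list, with earlier results of these data known. Counts of members set beside the share of all genes are therefore a description and not an independent check. It holds 18 enzymes of sterol synthesis, 5 genes of sterol control and transport, 9 enzymes of fatty acid synthesis and Srebf1, a control gene of fatty acid synthesis, out of 27998 genes in the files. Single cells came from 1 pancreas of the knockout group, which the series calls Dpy30∆P, and from 1 pancreas of the control group. Both were of the C57BL/6 strain and of the same stage, digested with trypsin and run as 10x Chromium 3′ v2 libraries. The labels name neither the allele nor a Cre driver, so which cells carried a deletion is not known here. Dpy30 is a core subunit of TrxG complexes that act on histone tails.

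The knockout library held 33048640 UMIs in 4779 barcodes, where a UMI (unique molecular identifier) marks 1 captured transcript, and the control library held 25398522 UMIs in 3986 barcodes. After filtering, 3233 knockout and 2611 control cells were kept, with medians of 6631 UMIs in the knockout and 6831 UMIs in the control library. The libraries shared 27 cell barcodes, of which 12 were among kept cells of both. Xist had 48052 UMIs in the knockout library and 1 in the control library, and the Y-linked gene Ddx3y had 0 UMIs in the knockout library and 1624 in the control library. Dpy30 itself had 4053 of 28214513 UMIs in kept knockout cells and 2453 of 21669977 UMIs in kept control cells, and since tags of a 3′ library need not lie in a deleted part, they check neither the deletion nor the labels. Genotype, sex, embryo and library cannot be told apart in any comparison below. With 1 library per group no test was possible, and the values have no replicate check. Levels are the summed UMIs of a cell class as counts per 1000000 UMIs of that class (CPM), and each UMI of a 3′ library stands for 1 transcript, so levels were not divided by gene length. Ratios are knockout over control, and every interval given is at 95% and covers only counting error.

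Animal cells make cholesterol from acetyl-CoA through the mevalonate pathway, which builds isoprenoid units, joins them to squalene and closes and trims the sterol rings. Fatty acid synthesis starts from the same acetyl-CoA, and the chains are then elongated and desaturated. Both sets of genes are known targets of the SREBP transcription factors, which sit in the endoplasmic reticulum with Scap and Insig proteins and are released when sterols are low. The same sterol state works in the opposite direction on targets of the LXR receptors, such as the cholesterol exporter Abca1.

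Promoters are shown for 4 members that had among the lowest ratios in several classes and for Abca1, whose ratio lay on the other side of 1 in endocrine-like and mesenchymal-like cells. Each sequence runs from 250 bases before to 50 bases after the start of the RefSeq transcript (GRCm38.p6), with Hmgcs1 at chr13:119690101-119690400 on the plus strand, Msmo1 at chr8:64733529-64733828 on the minus strand, Cyp51 at chr5:4104648-4104947 on the minus strand, Insig1 at chr5:28071162-28071461 on the plus strand and Abca1 at chr4:53159846-53160145 on the minus strand. They are written 5′ to 3′ on the strand of the gene, and capitals mark the letters CCAAT or its reverse complement ATTGG and, in Hmgcs1 only among these 5, the sterol regulatory element letters TCACNCCAC.
Hmgcs1: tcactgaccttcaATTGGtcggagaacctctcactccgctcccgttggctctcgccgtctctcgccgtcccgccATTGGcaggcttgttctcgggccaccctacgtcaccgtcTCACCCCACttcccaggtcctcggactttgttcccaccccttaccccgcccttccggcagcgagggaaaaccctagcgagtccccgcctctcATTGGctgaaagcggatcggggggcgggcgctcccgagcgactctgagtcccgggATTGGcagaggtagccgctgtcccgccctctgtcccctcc
Msmo1: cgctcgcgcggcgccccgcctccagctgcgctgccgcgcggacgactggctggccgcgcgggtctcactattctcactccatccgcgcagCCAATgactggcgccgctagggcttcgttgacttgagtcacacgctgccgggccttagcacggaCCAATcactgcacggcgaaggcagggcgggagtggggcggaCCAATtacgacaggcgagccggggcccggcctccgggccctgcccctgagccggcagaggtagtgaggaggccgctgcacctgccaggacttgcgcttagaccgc
Cyp51: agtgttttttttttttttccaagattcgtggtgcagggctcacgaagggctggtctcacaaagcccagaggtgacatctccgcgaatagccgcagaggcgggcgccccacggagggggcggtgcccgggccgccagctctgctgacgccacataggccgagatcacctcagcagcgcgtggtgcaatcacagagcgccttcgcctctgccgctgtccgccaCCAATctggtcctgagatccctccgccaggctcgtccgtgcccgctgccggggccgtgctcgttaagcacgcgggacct
Insig1: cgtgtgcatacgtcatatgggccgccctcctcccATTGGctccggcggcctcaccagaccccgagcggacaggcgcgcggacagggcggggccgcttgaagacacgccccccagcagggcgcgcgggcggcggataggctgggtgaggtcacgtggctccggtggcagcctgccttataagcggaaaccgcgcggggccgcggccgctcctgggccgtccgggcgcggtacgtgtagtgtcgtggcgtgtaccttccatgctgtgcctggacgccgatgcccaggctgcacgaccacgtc
Abca1: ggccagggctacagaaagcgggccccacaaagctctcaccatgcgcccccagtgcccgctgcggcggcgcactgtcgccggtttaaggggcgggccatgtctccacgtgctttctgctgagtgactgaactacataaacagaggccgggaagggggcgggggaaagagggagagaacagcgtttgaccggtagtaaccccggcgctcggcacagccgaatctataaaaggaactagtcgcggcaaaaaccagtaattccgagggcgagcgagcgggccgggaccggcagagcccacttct
Of the 33 members, 26 had at least 1 promoter in the RefSeq table, and 32 promoters were listed for them, with several each for Dhcr7, Srebf1, Pmvk and Me1. CCAAT, on either strand, was in at least 1 promoter of 21 of these 26 genes, of 14 of 15 sterol enzyme genes and of 3 of 6 fatty acid enzyme genes, against 41.1% of the 27025 genes in the table. Counted by promoter, it was in 22 of the 32 and in 14 of the 18 of sterol enzymes, against 37.4% of all 32851 promoters. The letters TCACNCCAC, on either strand, were in 1 of the 32, starting 137 bases before the Hmgcs1 start (position -137), against 1.24% of all promoters. The 2 kinds of match did not overlap in the Hmgcs1 promoter. A match is a description of the letters and not a mapped binding site.

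The sterol enzymes were lower in the knockout library in 5 of the 7 cell classes that had at least 50 cells in each library, by 1.5-fold or more in their summed level. In acinar-like cells, the makers of digestive enzymes, the 18 enzymes together stood at 326 CPM in the knockout library and at 960 CPM in the control library, a ratio of 0.340 (0.316 to 0.365). In mesenchymal-like cells, the connective tissue of the organ, they stood at 458 CPM in the knockout and 1133 CPM in the control library, a ratio of 0.405 (0.385 to 0.425). Ductal-like cells had 471 CPM in the knockout and 887 CPM in the control library, with a ratio of 0.531 (0.505 to 0.558). Per UMI of the class, these 3 classes therefore held fewer sterol enzyme transcripts in the knockout library.

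The 2 other classes past that fold were mesothelial-like cells, the covering of the organ, and macrophage and myeloid-like cells. Mesothelial-like cells had 448 CPM in the knockout and 835 CPM in the control library, a ratio of 0.536 (0.487 to 0.589). In the myeloid class the sum was 223 CPM in the knockout and 366 CPM in the control library, a ratio of 0.607 (0.486 to 0.758). The remaining classes differed less. Endothelial-like cells had 248 CPM in the knockout and 317 CPM in the control library, a ratio of 0.781 (0.669 to 0.910), and endocrine-like cells had 361 CPM in the knockout and 416 CPM in the control library, a ratio of 0.867 (0.796 to 0.944). Pericyte and smooth muscle-like cells, with only 47 knockout and 91 control cells, had 494 CPM in the knockout and 447 CPM in the control library, a ratio of 1.10 (0.897 to 1.36). Among the classes described so far, the order within the control library ran from mesenchymal-like at 1133 CPM to endothelial-like at 317 CPM. Within the knockout library it ran from pericyte-like at 494 CPM to myeloid-like at 223 CPM. Glial, neuronal and red cell clusters, with at most 24 cells in a library, were left out of this order. In the knockout library the neighbouring values of mesothelial-like, mesenchymal-like and ductal-like cells lay within their counting error.

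The fatty acid enzymes followed a different order. Their sum in acinar-like cells was 406 CPM in the knockout and 1091 CPM in the control library, a ratio of 0.373 (0.349 to 0.399). Scd2, a desaturase that puts the first double bond into stearate, gave 72.6% of these UMIs in the knockout and 82.8% in the control library, and without it the ratio was 0.595. Mesenchymal-like cells had 361 CPM in the knockout and 573 CPM in the control library, a ratio of 0.630 (0.592 to 0.670). Mesothelial-like cells had 260 CPM in the knockout and 386 CPM in the control library, a ratio of 0.672 (0.590 to 0.765). In ductal-like cells the sum was 378 CPM in the knockout and 453 CPM in the control library, a ratio of 0.835 (0.786 to 0.886), so the fatty acid sum differed less than the sterol sum of the same cells. Endocrine-like cells had 442 CPM in the knockout and 485 CPM in the control library, a ratio of 0.911 (0.843 to 0.985). The other 2 classes had few UMIs, with 121 CPM in knockout and 181 CPM in control myeloid-like cells and 178 CPM in knockout and 187 CPM in control endothelial-like cells.

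**Figure D1:**
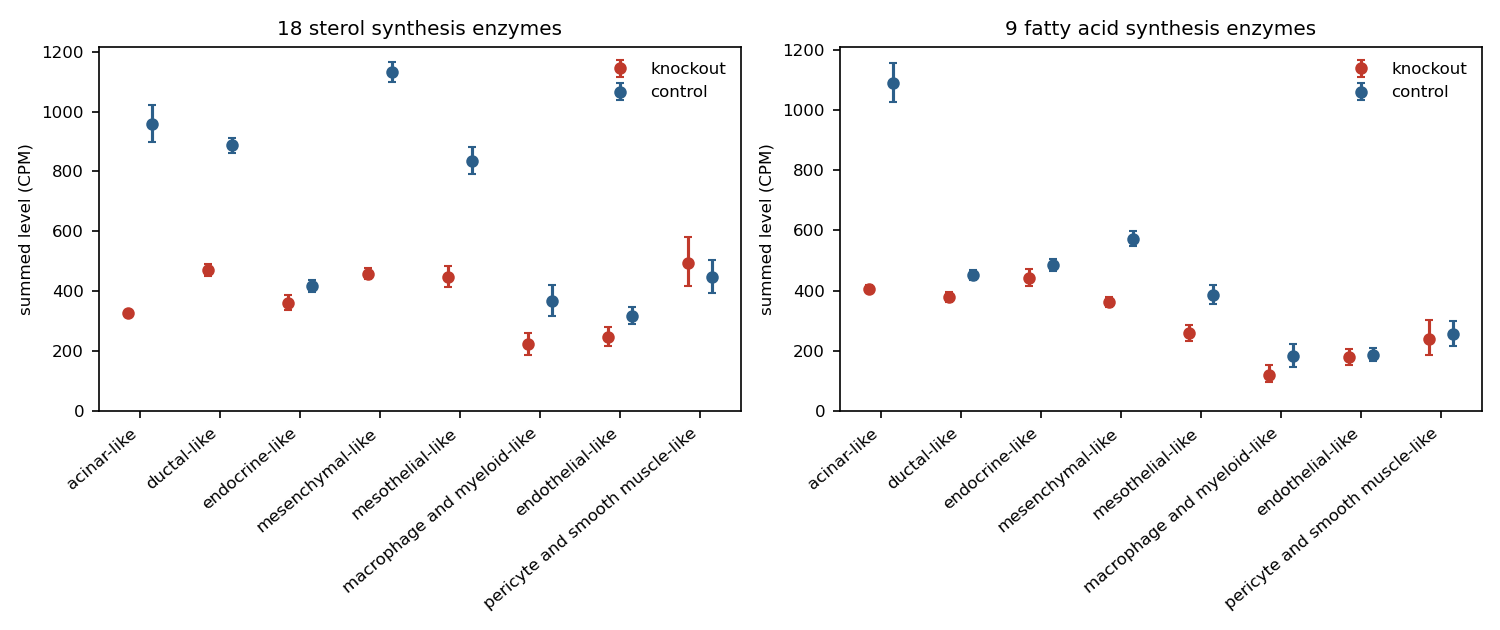
Summed level of the 18 sterol synthesis enzymes (left) and the 9 fatty acid synthesis enzymes (right), in CPM, for 8 cell classes, with knockout left of control in each class. Points are the 2 libraries and bars are exact 95% Poisson intervals. The sterol sum of mesenchymal-like cells is 458 CPM in the knockout and 1133 CPM in the control library, while pericyte and smooth muscle-like cells have 494 and 447 CPM, knockout first.

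Mesenchymal-like cells, with 958 knockout and 716 control cells at similar median depth (5264 and 5448 UMIs, knockout first), gave the most even picture. Of the 32 members with at least 20 UMIs over both libraries, 26 were lower in the knockout library by at least 1.5-fold, against 7.02% of 10862 genes with as many UMIs, and 1 was higher, against 4.94%. The median log2 ratio of all those genes was 0.00, and that of the 18 sterol enzymes was -1.35. Of the sterol enzymes, 17 of 18 were lower by that fold, and the exception was Ebp, at 29.8 CPM in the knockout and 41.1 CPM in the control library.

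Along the pathway, the upper mevalonate enzymes came first. Hmgcs1, the synthase that makes HMG-CoA, had 63.7 CPM in knockout and 151 CPM in control mesenchymal-like cells, a ratio of 0.420 (0.366 to 0.481). Acat2, the cytosolic thiolase before it, had 41.6 CPM in the knockout and 74.2 CPM in the control library, a ratio of 0.560 (0.468 to 0.670). The 3 kinase and decarboxylase genes that turn mevalonate into an isoprenoid unit had ratios of 0.573 (Mvk), 0.551 (Pmvk) and 0.474 (Mvd). The ratios of these 5 first steps lay closer to 1 than those of the isoprenoid steps that follow. Idi1, the isomerase of isoprenoid units, had 25.5 CPM in the knockout and 90.5 CPM in the control library, a ratio of 0.282 (0.229 to 0.345), the lowest among the sterol enzymes of this class. Fdps, which joins the units to farnesyl diphosphate, had 39.9 CPM in the knockout and 134 CPM in the control library, a ratio of 0.298 (0.252 to 0.350).

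The squalene and ring-closing steps had ratios from 0.306 to 0.369. Fdft1, squalene synthase, had 19.9 CPM in knockout and 58.4 CPM in control mesenchymal-like cells, a ratio of 0.341 (0.268 to 0.432). Sqle, squalene epoxidase, had 41.4 CPM in the knockout and 112 CPM in the control library, a ratio of 0.369 (0.312 to 0.435). Lss, which closes the rings to lanosterol, had only 88 UMIs in all and a ratio of 0.306 (0.185 to 0.494). Of the enzymes that trim lanosterol, Cyp51, the C14 demethylase, had 26.7 CPM in the knockout and 73.5 CPM in the control library, a ratio of 0.363 (0.295 to 0.446). Tm7sf2, the C14 reductase after it, had 14 UMIs in the knockout and 35 in the control library, a ratio of 0.309 (0.153 to 0.588). The C4 demethylation takes 3 of the enzymes. Msmo1, its oxidase, had 39.3 CPM in the knockout and 125 CPM in the control library, a ratio of 0.314 (0.265 to 0.370). The X-linked Nsdhl, its dehydrogenase, had 15.1 CPM in the knockout and 30.6 CPM in the control library, a ratio of 0.493 (0.366 to 0.661). Hsd17b7, its reductase, had 10.4 CPM in the knockout and 32.1 CPM in the control library, a ratio of 0.325 (0.232 to 0.451). The last steps had ratios of 0.724 for Ebp, the X-linked isomerase, 0.463 for Sc5d, the desaturase, and 0.537 for Dhcr7, the last reductase.

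The control and transport genes split. Srebf2, which encodes the SREBP of sterol genes, had 18.8 CPM in knockout and 47.2 CPM in control mesenchymal-like cells, a ratio of 0.398 (0.308 to 0.511). Insig1, which holds SREBP back in the endoplasmic reticulum and is itself a target, had 34.2 CPM in the knockout and 99.1 CPM in the control library, a ratio of 0.346 (0.288 to 0.414). Stard4, a carrier of cholesterol between membranes, had 16.1 CPM in the knockout and 43.6 CPM in the control library, a ratio of 0.368 (0.280 to 0.481). Tmem97, a sterol-regulated membrane protein, stayed within the fold at 38.9 CPM in the knockout and 44.6 CPM in the control library. Abca1, the exporter, lay on the other side, at 18.2 CPM in the knockout and 11 CPM in the control library, a ratio of 1.65 (1.14 to 2.41).

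Of the 8 fatty acid enzymes with enough UMIs in mesenchymal-like cells, 6 were lower. Scd2 had 193 CPM in the knockout and 302 CPM in the control library, a ratio of 0.639 (0.587 to 0.696). Scd1, a second stearoyl desaturase, had 8.90 CPM in the knockout and 19.3 CPM in the control library, and Elovl6, an elongase, had 25.5 CPM in the knockout and 55.4 CPM in the control library. Both had a ratio of 0.461. Fasn, fatty acid synthase, had a ratio of 0.562 (0.448 to 0.704), Fads1, a desaturase of polyunsaturated chains, 0.582 (0.458 to 0.738), and Acly, which makes cytosolic acetyl-CoA from citrate, 0.605 (0.504 to 0.725). Acaca, the acetyl-CoA carboxylase, and Me1, a malic enzyme that supplies NADPH, did not share the direction, with ratios of 1.12 (0.859 to 1.45) and 1.06 (0.703 to 1.61). Srebf1 had 9.87 CPM in the knockout and 13.3 CPM in the control library, a ratio of 0.742 (0.495 to 1.11).

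**Figure D2:**
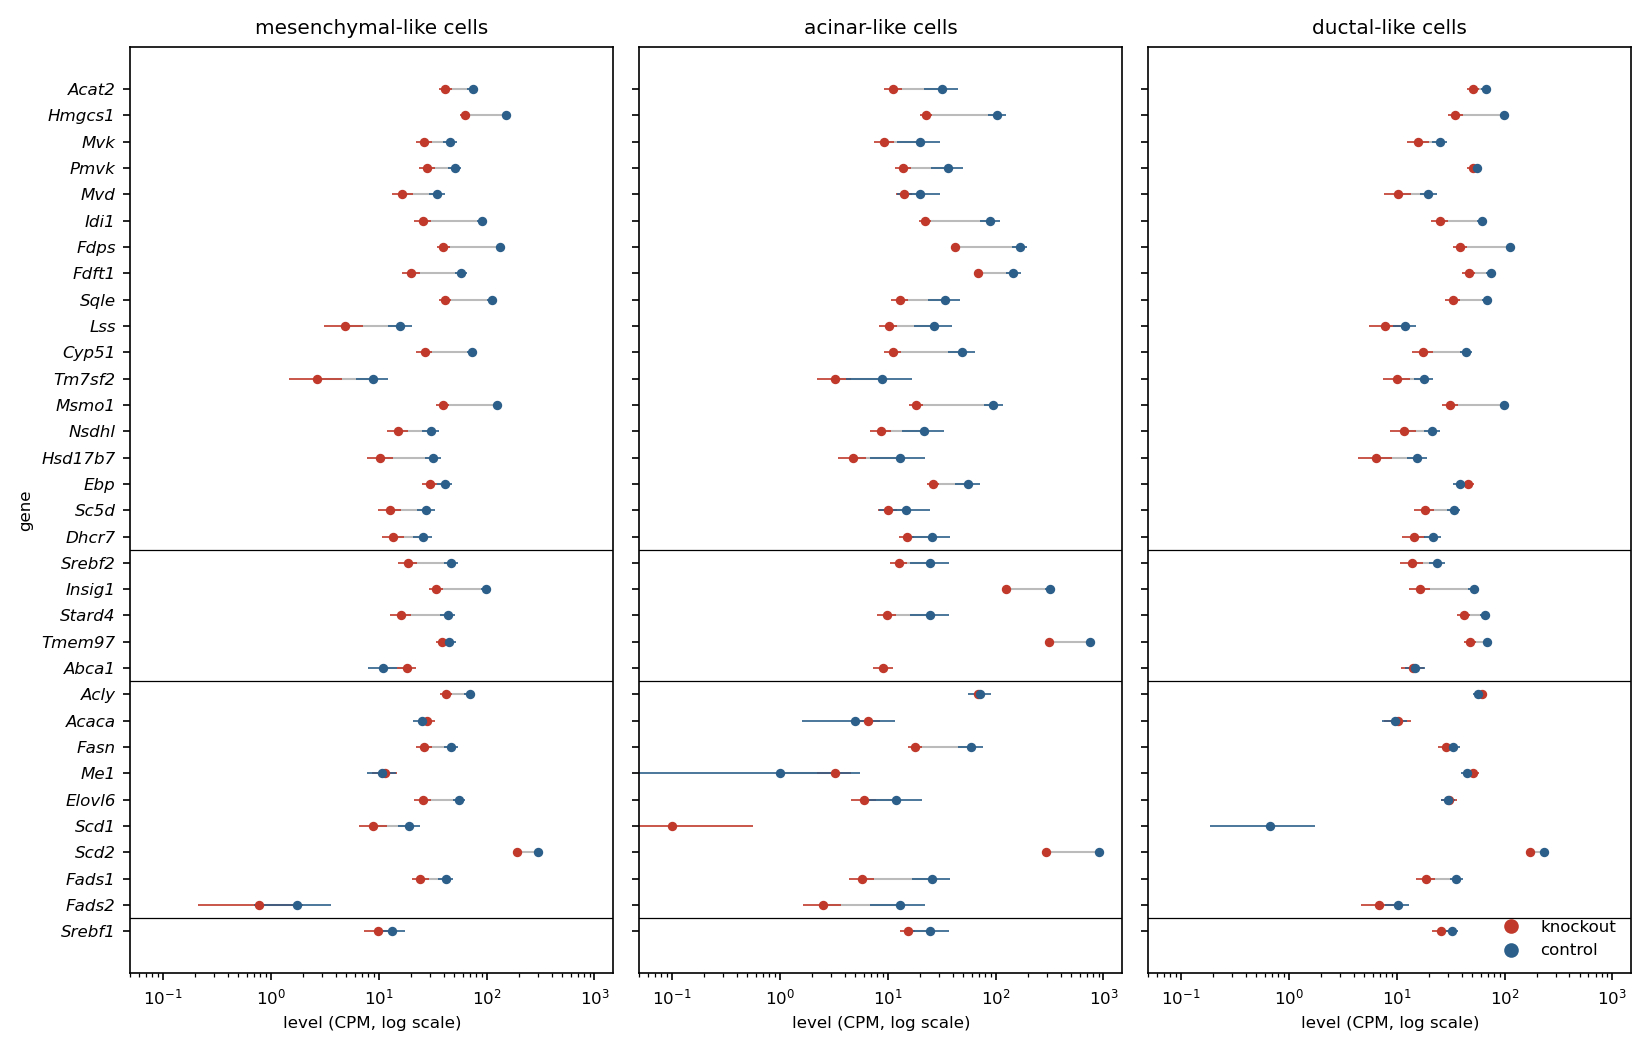
Level of each of the 33 genes in mesenchymal-like, acinar-like and ductal-like cells, in CPM on a log axis, with the knockout library in red and the control library in blue. Bars are exact 95% Poisson intervals, lines separate sterol enzymes, sterol control and transport, fatty acid enzymes and Srebf1, and a library with 0 UMIs has no point. In mesenchymal-like cells Idi1 lies at 25.5 CPM in the knockout and 90.5 CPM in the control library, while Acaca lies at 28.3 and 25.3 CPM, knockout first.

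The lower level was found in each mesenchymal cluster taken alone. Cluster 2, led by Ogn and Itm2a, had a sterol sum of 396 CPM in the knockout and 1205 CPM in the control library, a ratio of 0.328 (0.299 to 0.360). Cluster 4, led by Krtdap and Mfap5, had the highest levels of the 3, with 701 CPM in the knockout and 1617 CPM in the control library and a ratio of 0.434 (0.401 to 0.469). Cluster 0, led by Serpine2 and Cxcl1, had 348 CPM in the knockout and 749 CPM in the control library, a ratio of 0.464 (0.423 to 0.509). The knockout values ran from 348 to 701 CPM and the control values from 749 to 1617 CPM. The counting intervals of the highest knockout cluster (658 to 747 CPM) and the lowest control cluster (709 to 792 CPM) overlapped. When each cell was thinned to 2000 UMIs, which left out 10 knockout and 2 control cells, the mean sum of the 18 enzymes was 0.876 UMIs in a knockout and 2.26 UMIs in a control mesenchymal-like cell, against 2.5 and 6.33 UMIs without thinning, knockout first. The cell at the 90th percentile held 2 such UMIs in the knockout and 6 in the control library, and the median cell held 0 in the knockout and 1 in the control library.

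In acinar-like cells, 26 of 32 members with at least 20 UMIs were lower in the knockout library, against 9.14% of 10624 genes, and 2 were higher, against 26.8%. With each cell thinned to 2000 UMIs, 14 of the 19 members that kept 20 UMIs were lower. The class held 755 knockout and 109 control cells, with medians of 11658 UMIs in the knockout and 6073 UMIs in the control library. The median log2 ratio of all genes tested was 0.20 and that of the sterol enzymes -1.39. The lowest ratio of a sterol enzyme was that of Msmo1, with 18.3 CPM in the knockout and 95.6 CPM in the control library, a ratio of 0.191 (0.149 to 0.248). Hmgcs1 had 22.6 CPM in the knockout and 104 CPM in the control library, a ratio of 0.218 (0.172 to 0.278). Cyp51 had a ratio of 0.229 (0.162 to 0.327), Idi1 0.249 (0.194 to 0.322) and Fdps 0.254 (0.212 to 0.306). Mvd, at 0.712 (0.444 to 1.20), and Sc5d, at 0.673 (0.389 to 1.25), stayed within the fold, and both rest on 20 or fewer control UMIs. In the acinar clusters that both libraries shared, described below, Mvd was lower, at 0.522 (0.287 to 0.982), and Sc5d stayed within the fold.

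Tmem97, Insig1 and Scd2 had their highest levels of the 7 classes, in both libraries, in acinar-like cells. Tmem97 stood at 313 CPM in knockout and 753 CPM in control acinar-like cells, a ratio of 0.416 (0.384 to 0.451), against 12.8 to 48.0 CPM in knockout cells and 18.9 to 69.2 CPM in control cells of the 6 other classes compared. Insig1 stood at 126 CPM in the knockout and 320 CPM in the control library, a ratio of 0.394 (0.349 to 0.447). Scd2 stood at 295 CPM in the knockout and 903 CPM in the control library, a ratio of 0.327 (0.303 to 0.352). All 3 were lower in the knockout library. Of the other fatty acid enzymes, Fads2, a second polyunsaturated desaturase, had a ratio of 0.194 (0.0956 to 0.413) on 38 UMIs, Fads1 of 0.221 (0.137 to 0.367) and Fasn of 0.308 (0.228 to 0.421). Acly, at 69.1 CPM in the knockout and 71.7 CPM in the control library, had a ratio of 0.963 (0.755 to 1.25). Abca1 had 90 UMIs in the knockout and 0 in the control library, which is at least 3.03-fold higher against a floor of 3 counts in the control library. Of those 90 UMIs, 79 lay in cluster 3, which held nearly no control cells, and the shared clusters described next had 11 UMIs in the knockout and 0 in the control library, too few for a call.

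These acinar values mixed 2 kinds of cluster. Cluster 3, led by Reg1 and Cela1, held 418 knockout cells and 2 control cells, while clusters 7 and 16 together held 337 knockout and 107 control cells. In the 2 shared clusters, 21 of 29 members with enough UMIs were lower, against 8.17% of 8413 genes, and 1 was higher, against 17.1%. The sterol sum there was 421 CPM in the knockout and 966 CPM in the control library, a ratio of 0.436 (0.401 to 0.474), and 16 of 17 sterol enzymes were lower. The fatty acid sum was 776 CPM in the knockout and 1115 CPM in the control library, a ratio of 0.696 (0.648 to 0.748), with 3 of 7 enzymes lower. Tmem97, at 602 CPM in the knockout and 746 CPM in the control library, and Scd2, at 643 CPM in the knockout and 929 CPM in the control library, stayed within the fold there. Several ratios of single members lay nearer to 1 there than in the whole class. They were 0.247 for Hmgcs1, 0.285 for Msmo1, 0.294 for Cyp51, 0.383 for Idi1 and 0.465 (0.380 to 0.570) for Fdps. Insig1 had 0.572 (0.499 to 0.656), Fads1 0.372 and Fasn 0.480. Mvd went the other way, as given above, and Fads2 hardly moved, at 0.191.

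Among knockout cells alone, the cluster of 418 cells had less of several members than the 2 shared clusters. Its sterol sum was 276 CPM, against 421 CPM in the shared clusters, and its fatty acid sum was 210 CPM, against 776 CPM. Scd2 had 110 CPM in the lone and 643 CPM in the shared clusters, a ratio of 0.171 (0.157 to 0.186). Tmem97 had 160 CPM in the lone and 602 CPM in the shared clusters, Stard4 had 4.93 and 19.1 CPM, and Fdps had 24.5 and 76.5 CPM, lone cluster first. Past 1.5-fold the other way were Mvd, with 16.5 CPM in the lone and 9.86 CPM in the shared clusters (1.67, 1.13 to 2.54), and Abca1, with 12.2 CPM in the lone and 3.19 CPM in the shared clusters. Members were kept out of the genes used for clustering, but the 2 kinds of cluster were defined on the same cells, so these values are a description.

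In ductal-like cells, 18 of 32 members were lower, against 5.59% of 11441 genes, and 0 were higher, against 5.92%, and 8 of the 18 were lower by at least 2-fold. The class held 383 knockout and 508 control cells with medians of 10360 and 9770 UMIs, knockout first. Insig1 had 16.3 CPM in the knockout and 51.9 CPM in the control library, a ratio of 0.315 (0.243 to 0.404). Msmo1 had 31.4 CPM in the knockout and 99.2 CPM in the control library, a ratio of 0.317 (0.263 to 0.379). Fdps, with a ratio of 0.343 (0.290 to 0.404), and Hmgcs1, with 0.359 (0.30 to 0.426), were the next lowest. The enzymes that stayed within the fold were Acat2 at 0.769, Pmvk at 0.928, Dhcr7 at 0.667 and Ebp at 1.18. Of 8 fatty acid enzymes only Fads1 was lower, with 18.6 CPM in the knockout and 35.8 CPM in the control library, a ratio of 0.520 (0.402 to 0.669). Fasn had a ratio of 0.850 (0.679 to 1.06) and Scd2 of 0.739 (0.677 to 0.806), and Acly, Acaca, Me1 and Elovl6 lay between 1.03 and 1.14. The cycling ductal cluster had a sterol sum of 536 CPM in the knockout and 993 CPM in the control library, and the non-cycling one had 430 CPM in the knockout and 840 CPM in the control library, with ratios of 0.539 (0.499 to 0.583) and 0.512 (0.480 to 0.546).

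**Figure D3:**
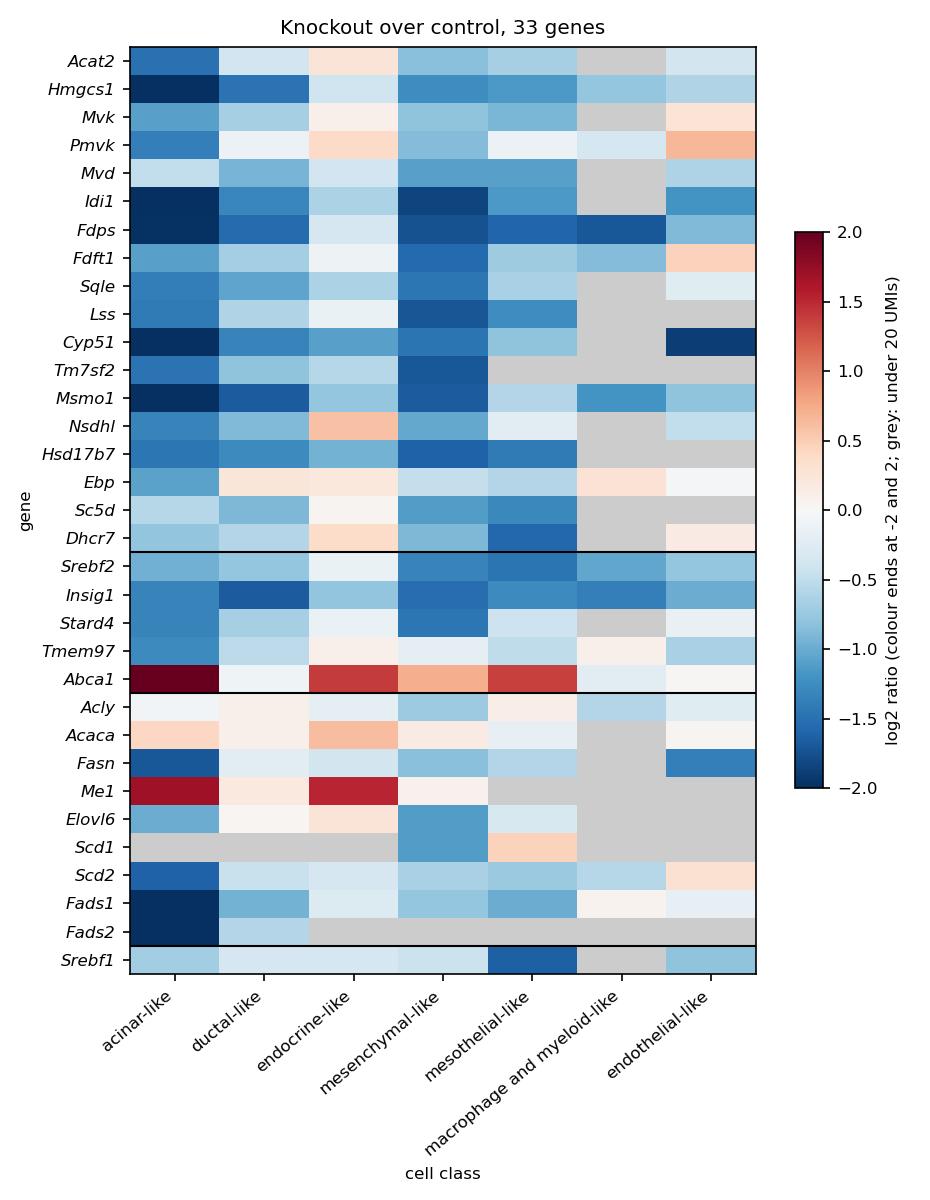
Log2 ratio of knockout over control for each of the 33 genes (rows) in the 7 cell classes compared (columns), with blue for lower and red for higher in the knockout library and grey where both libraries together had fewer than 20 UMIs. Abca1 in acinar-like cells had 0 control UMIs and is drawn at the end of the colour scale. The sterol rows are blue in the acinar-like and mesenchymal-like columns, and Insig1 is blue in all 7, from 0.315 in ductal-like to 0.578 in endocrine-like cells as ratios.

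Endocrine-like cells, like endothelial-like ones, had a sterol sum within the fold. Of 31 members with at least 20 UMIs, 6 were lower, against 6.18% of 11048 genes, and 4 were higher, against 21.7%, and the median log2 ratio of all genes in the class was 0.25. The count of 6 depends on the setting: it was 13 after dividing by the median ratio of all genes, 10 of 20 members with cells thinned to 2000 UMIs, 3 with at most 5% mitochondrial UMIs and 1 at 2-fold. The lower ones were Idi1, Sqle, Cyp51, Msmo1, Hsd17b7 and Insig1. Cyp51 had 10.3 CPM in the knockout and 21.9 CPM in the control library, a ratio of 0.468 (0.280 to 0.751), and Msmo1 had 27.5 CPM in the knockout and 47.0 CPM in the control library, a ratio of 0.585 (0.430 to 0.785). Insig1 had 13.0 CPM in the knockout and 22.6 CPM in the control library, a ratio of 0.578 (0.365 to 0.887). Hmgcs1 and Fdps stayed within the fold, at 0.758 (0.549 to 1.03) and 0.793 (0.604 to 1.03). Acly was the most abundant member of the class, with 296 CPM in the knockout and 335 CPM in the control library, a ratio of 0.885 (0.805 to 0.972). Higher were Abca1, with 62.0 CPM in the knockout and 23.5 CPM in the control library (2.64, 2.02 to 3.45), Me1 (2.89, 1.60 to 5.31), Acaca (1.53, 0.927 to 2.5) and the X-linked Nsdhl (1.5, 0.868 to 2.57).

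The endocrine types differed in level. Progenitor-like cells, marked by Neurog3, had a sterol sum of 389 CPM in 29 knockout cells and 581 CPM in 28 control cells, a ratio of 0.669 (0.480 to 0.926). Beta-like cells, the insulin makers, had 289 CPM in 17 knockout cells and 304 CPM in 109 control cells, a ratio of 0.95 (0.728 to 1.22). Alpha-like cells, the glucagon makers, had 290 CPM in 14 knockout cells and 387 CPM in 92 control cells (0.749, 0.509 to 1.07), and delta-like cells, the somatostatin makers, had 439 CPM in 13 knockout cells and 575 CPM in 29 control cells (0.764, 0.523 to 1.10). The named types thus had from 289 to 439 CPM in the knockout and from 304 to 581 CPM in the control library, and with 13 to 29 knockout cells each their intervals were wide. An unnamed sub-cluster of 92 knockout and 2 control cells, led by the globin gene Hbb-bs, stood at 344 CPM in its knockout cells. Sub-clusters led by Pdx1 and by the duct gene Spp1 had 471 and 422 CPM in knockout cells, against 625 and 737 CPM in control cells, in that order of sub-clusters. Mesenchymal markers, all 12 detected, summed to 447 CPM in knockout and 86.9 CPM in control endocrine-like cells. The 14 acinar markers, of which 13 were detected in the knockout and 12 in the control library, summed to 957 CPM in knockout and 250 CPM in control endocrine-like cells. An alternative setting left out that Hbb-bs-led sub-cluster and those led by Spp1 and by Col1a2. It kept 96 of 236 knockout and 335 of 368 control cells. Over all settings, this one included, the endocrine sterol ratio ran from 0.727 to 0.934 and the fatty acid ratio from 0.764 to 0.971. The part of either set of markers in the endocrine values was not tested otherwise.

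**Figure D4:**
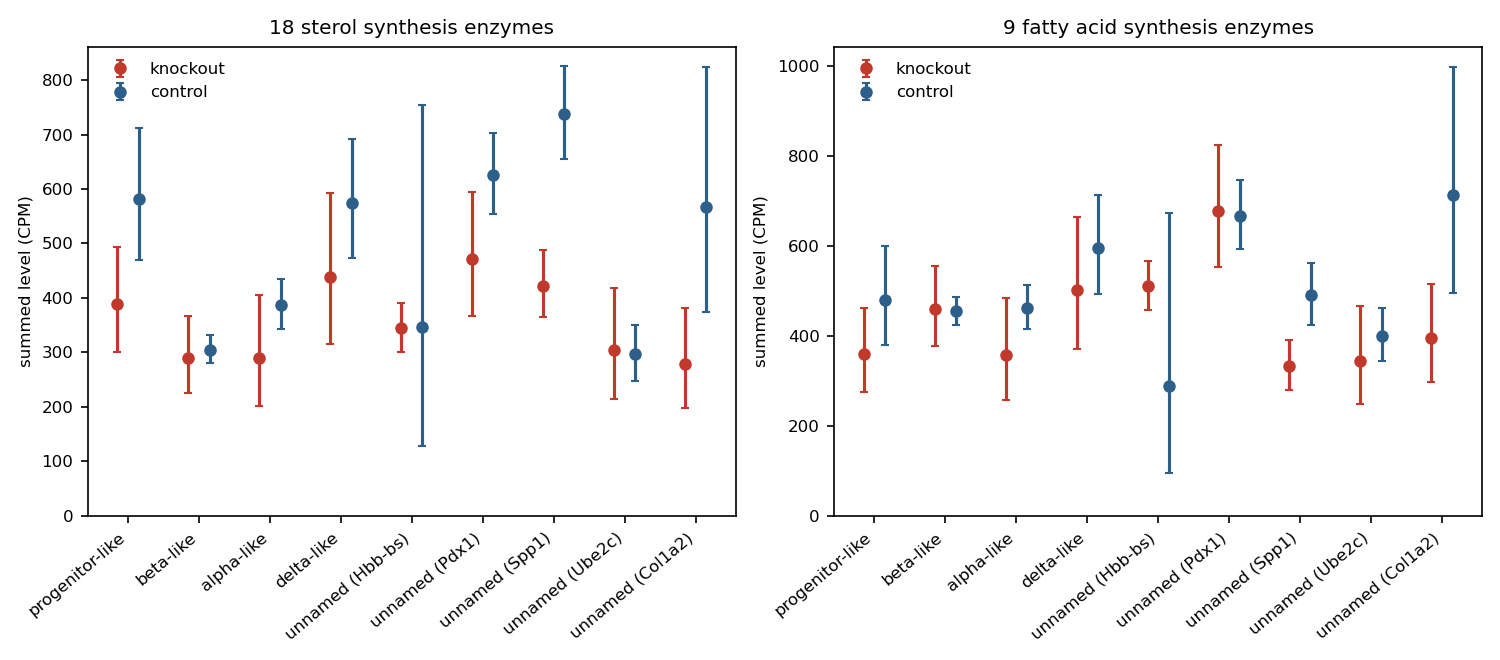
Summed level of the sterol (left) and fatty acid (right) enzymes in the 9 endocrine sub-clusters, in CPM, with knockout left of control and exact 95% Poisson intervals. Unnamed sub-clusters carry their leading gene. Progenitor-like cells have sterol sums of 389 CPM in the knockout and 581 CPM in the control library, and beta-like cells of 289 and 304 CPM, knockout first.

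Mesothelial-like cells had 19 of 30 members lower, against 9.97% of 9335 genes, and 1 higher, against 7.16%. Hmgcs1 had 64.1 CPM in the knockout and 142 CPM in the control library, a ratio of 0.450 (0.350 to 0.576), and Idi1 had the same ratio. Fdps had a ratio of 0.335 (0.227 to 0.485) and Insig1 of 0.415 (0.301 to 0.566). Abca1 was the higher member, with 16 UMIs in the knockout and 7 in the control library and a ratio of 2.56 (0.997 to 7.36), an interval that includes 1. Endothelial-like cells had 11 of 25 members lower, against 9.73% of 8579 genes, and 1 higher, against 7.59%. There Cyp51 had 6 UMIs in the knockout and 36 in the control library, a ratio of 0.270 (0.0931 to 0.647), and Idi1 11 and 41 UMIs, knockout first, a ratio of 0.435 (0.202 to 0.862). Stard4 (93.5 CPM in the knockout and 104 CPM in the control library) and Abca1 (167 and 164 CPM, knockout first) had ratios of 0.901 (0.693 to 1.16) and 1.02 (0.835 to 1.24). The myeloid class had 13 members with enough UMIs, of which 6 were lower, against 12.8% of 5655 genes, and 0 were higher, against 10.1%. Its lowest were Fdps at 0.309 (0.0990 to 0.832) and Insig1 at 0.388 (0.145 to 0.948).

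Insig1 was lower by at least 1.5-fold in all 7 classes, while Abca1 was past that fold on the higher side in 4 of them only. All classes come from the same 2 libraries. Insig1 had ratios of 0.394 in acinar-like, 0.315 in ductal-like, 0.578 in endocrine-like, 0.346 in mesenchymal-like, 0.415 in mesothelial-like, 0.504 in endothelial-like and 0.388 in myeloid-like cells. In the shared acinar clusters alone its ratio was 0.572. Abca1 had ratios of 0.942 in ductal-like, 2.64 in endocrine-like, 1.65 in mesenchymal-like, 2.56 in mesothelial-like, 1.02 in endothelial-like and 0.866 in myeloid-like cells. For Abca1 the mesothelial interval given above includes 1, and acinar-like cells have no ratio because the control library held no UMI. Its highest level was 193 CPM in knockout and 223 CPM in control myeloid-like cells. In those of the 7 classes where they had at least 20 UMIs, Acaca and Me1 had ratios between 0.889 and 3.23, and Acly between 0.605 and 1.10. The 3.23 was that of Me1 in acinar-like cells and rests on 1 control UMI. There Me1 had 16 knockout and 0 control UMIs in cluster 3. In the shared clusters it had 16 and 1 UMIs, knockout first, too few for a call.

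**Figure D5:**
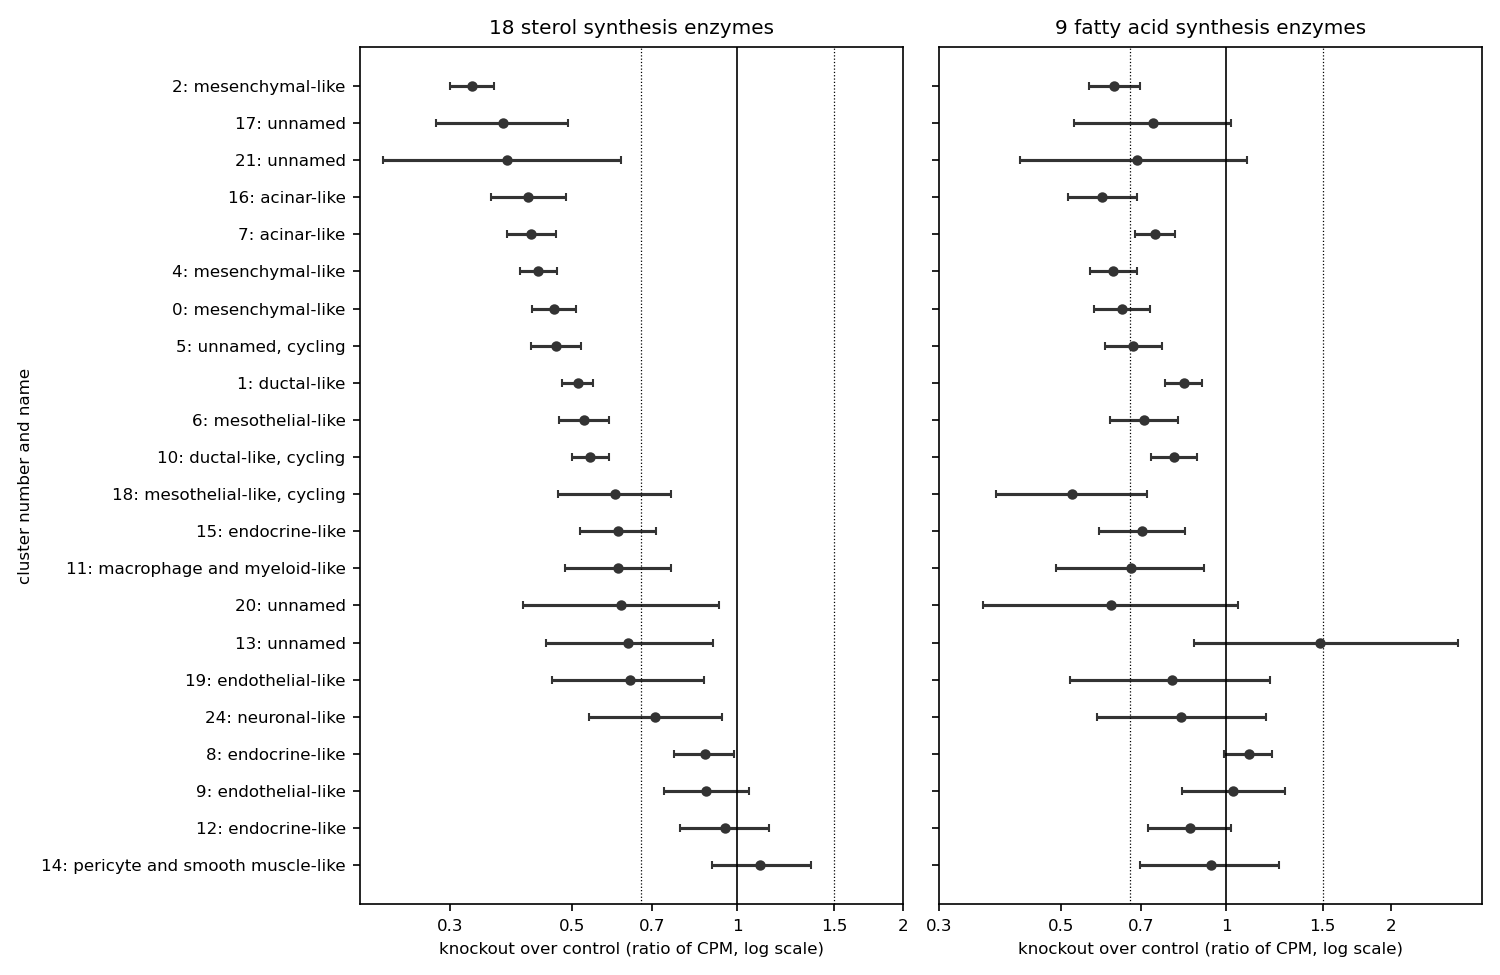
Ratio of knockout over control, on a log axis, of the summed sterol (left) and fatty acid (right) enzymes in the 22 clusters with at least 5 cells in each library and at least 100 sterol UMIs, ordered by the sterol ratio. Bars are exact conditional 95% intervals, the solid line marks a ratio of 1 and the dotted lines mark 1.5-fold either way. The sterol ratios run from 0.328 in mesenchymal-like cluster 2 to 1.10 in the pericyte and smooth muscle-like cluster 14.

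Across single clusters, the sterol sum was lower by at least 1.5-fold in 17 of the 22 clusters with at least 100 sterol UMIs and 5 cells in each library. The fatty acid sum was lower by that fold in 5 of the 20 clusters with at least 100 fatty acid UMIs, and neither sum was higher by that fold in any. Among endocrine clusters the Neurog3-led one had a sterol ratio of 0.605 (0.516 to 0.710). The cluster led by insulin and somatostatin genes had 0.871 (0.766 to 0.987), and that led by the glucagon gene had 0.95 (0.787 to 1.14). These last clusters held 94 and 69 knockout cells, in that order, against 17 beta-like, 13 delta-like and 14 alpha-like knockout cells above. Most of their knockout cells were therefore not of those named types. Endothelial cells were also uneven, with 0.637 (0.460 to 0.868) in the cluster led by Gja4 and Cldn5 and 0.878 (0.734 to 1.05) in that led by Fabp4. The unnamed cycling cluster led by Top2a had a sterol sum of 335 CPM in the knockout and 717 CPM in the control library, a ratio of 0.467 (0.420 to 0.519).

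The sums of the other lipid lists lay nearer to 1 than the sterol sum in mesenchymal-like cells, from 0.808 to 1.10, though single genes of them were as low as sterol enzymes. Their counts stand against the same 7.02% of all genes lower and 4.94% higher. In mesenchymal-like cells 9 genes of SREBP processing, among them Scap, Mbtps1 and Insig2, summed to 183 CPM in each library, and 0 of 9 were past the fold in either direction. Insig2, the second gene for an Insig protein, had 33.1 CPM in the knockout and 26.3 CPM in the control library. Fatty acid oxidation genes summed to 455 CPM in the knockout and 414 CPM in the control library, and 0 of 9 were past the fold. Of 10 genes of acetyl-CoA supply and elongation, 3 were lower, with Acss2, the acetyl-CoA synthetase of the cytosol, at 4.64 CPM in the knockout and 12.3 CPM in the control library (0.378, 0.222 to 0.628). The lowest of those 10 was the X-linked Acsl4, an acyl-CoA synthetase named after its values were seen, with 12 UMIs in the knockout and 30 in the control library (0.309, 0.144 to 0.621). Of 8 genes of lipid storage and assembly 3 were lower, with Pcyt2, an enzyme of phosphatidylethanolamine synthesis, at 24.4 CPM in the knockout and 45.9 CPM in the control library (0.531, 0.420 to 0.670). Of 6 genes of LXR and export, 2 were lower, among them Scarb1, a lipoprotein receptor (0.599, 0.453 to 0.791), and 1 was higher, Mylip, an LXR target that marks lipoprotein receptors for decay (1.60, 1.08 to 2.43).

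The same lists in epithelium gave the following. In ductal-like cells SREBP processing genes summed to 213 CPM in the knockout and 208 CPM in the control library, with 0 of 9 past the fold, and fatty acid oxidation genes to 882 CPM in the knockout and 839 CPM in the control library. Acsl3, an acyl-CoA synthetase, was lower in ductal-like cells, at a ratio of 0.548 (0.411 to 0.723). In acinar-like cells SREBP processing genes summed to 150 CPM in the knockout and 116 CPM in the control library, and Slc25a1, the citrate carrier of mitochondria, was lower at 0.507 (0.395 to 0.659). In endocrine-like cells the 7 LXR and export genes summed to 425 CPM in the knockout and 290 CPM in the control library, a ratio of 1.47 (1.34 to 1.60), with Npc2, a lysosomal cholesterol carrier, at 296 CPM in the knockout and 191 CPM in the control library. Other sums of that class were also higher, with log2 ratios of 0.51 for storage and assembly, 0.46 for fatty acid oxidation and 0.39 for SREBP processing, beside 0.55 for LXR and export and the median of 0.25 over all genes.

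Cell cycle genes and RNA of other cells moved unevenly beside these results. S-phase genes summed to 326 CPM in both libraries of mesenchymal-like cells, to 681 CPM in knockout and 568 CPM in control ductal-like cells, and to 201 CPM in knockout and 255 CPM in control acinar-like cells. Their ratio was 0.733 (0.640 to 0.837) in endocrine-like cells, with 5 of 10 lower against 6.18% of all genes, and 0.716 (0.635 to 0.806) in mesothelial-like cells, with 4 of 10 lower against 9.97%. Of the 7 classes compared, mitosis genes had their largest ratio in the myeloid class, at 878 CPM in the knockout and 432 CPM in the control library (2.03, 1.74 to 2.38), with 8 of 10 higher against 10.1%. In the 6 others the mitosis ratio lay between 0.839 in acinar-like and 1.24 in mesothelial-like cells. The part of cycling cells in the members' values was not tested in the myeloid and mesothelial classes, while the cycling and non-cycling ductal clusters had the similar sterol ratios given above. All 14 acinar markers in knockout and 12 in control mesenchymal-like cells were detected, summing to 886 CPM in the knockout and 418 CPM in the control library. In ductal-like cells the 14 acinar markers summed to 1171 CPM in the knockout and 1315 CPM in the control library. They were higher in the knockout library of the smaller classes, at 761 CPM in knockout and 280 CPM in control mesothelial-like, 673 CPM in knockout and 232 CPM in control endothelial-like and 1312 CPM in knockout and 366 CPM in control myeloid-like cells. Their part in the levels of Tmem97, Insig1 and Scd2 outside acinar-like cells was not tested. Within acinar-like cells the same markers summed to 81766 CPM in the knockout and 119005 CPM in the control library, and with digestive enzymes and other dominant transcripts out of the class total the sterol ratio was 0.308.

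By their annotation (GENCODE, GRCm38), 4 members share exon sequence with another gene on the same strand (Fdps, Tm7sf2, Scd2 and Srebf1) and 8 have an antisense gene over an exon (Hmgcs1, Idi1, Fdft1, Lss, Cyp51, Me1, Elovl6 and Srebf1). The sources used here do not say whether counting used strand, and the split of reads at these genes is uncertain. In the authors' deposited table of genes by cluster, 8 members were listed among its 14 clusters. The authors' deposited table listed Msmo1, Tmem97, Hmgcs1, Fdps and Idi1 in cluster 8, which is led by Bfsp2 and Lef1, and Insig1 at rank 5 of 29 in cluster 11, which is led by the acinar genes Cpb1 and Spink1. It also listed Acly in cluster 7, led by Ppp1r1a and Nnat, and Abca1 in cluster 5, led by Lgi1 and Tmem27. The authors' deposited table compares clusters and not the 2 libraries.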

How the data were processed

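The deposited values were raw UMI counts per gene and barcode, made with Cell Ranger 3.0.0 per the file headers. Per the submitters' processing notes the builds were GRCm38 and mm10, and Seurat 2 and 3 were used besides. The authors' deposited gene table gives a p-value and an adjusted p-value per gene and cluster and a score, an average log fold change whose base is not given in the sources used here; only the cluster and rank were printed.

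Barcodes with under 500 detected genes (1465 knockout, 1290 control) or over 10% mitochondrial UMIs (57 and 63, knockout first) were left out, as were 24 knockout and 22 control doublets called by Scrublet. After scaling each cell to 10000 UMIs and taking logs, the 2000 genes with most variation were kept. All listed lipid genes stayed out of that choice, as did enzyme, hormone, globin, sex-linked, ribosomal protein and mitochondrial genes. Values were clipped at 10, reduced to 30 principal components, joined to 15 neighbours and clustered with Leiden at resolution 1 into 25 clusters. Clusters with at least 3 markers of 1 class among their 50 leading genes were named, and endocrine-like cells were clustered again on 20 components into 9 sub-clusters. UMIs were summed per library and class and divided by the class total. Intervals are exact Poisson for levels and exact conditional binomial for ratios, at 95%, and UMI sums set their width. A gene was called lower or higher at 1.5-fold with at least 20 UMIs over both libraries. No test across animals was run, since each group is 1 library.

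All 33 members could be named; of the other lists, the members with the largest and smallest ratio among those with at least 50 UMIs and the one with most UMIs. The members and lists were chosen with earlier results of these data known. Alternatives varied filters, doublets, clustering, totals, depth, averaging and fold; those for mesenchymal-like cells and the endocrine one without mixed sub-clusters were added after seeing the data. Tested on simulated counts, the calculation put 93.0% (acinar) to 98.5% (ductal) of 200 altered genes past the fold. Those genes were altered by well over 1.5-fold, and the simulation held counting error only. It therefore says nothing about calls near the fold or about differences between libraries. Promoters and gene positions came from RefSeq and GENCODE tables. Tools were matplotlib 3.10.9, scikit-learn 1.9.0, scanpy 1.11.5 with igraph 0.11.9 and leidenalg 0.10.2, pandas 2.3.3 and SciPy 1.17.1, on NumPy 2.4.6 and Python 3.11.15.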

Additional observations from a re-analysis of the deposited data

Results flagged for a closer look

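Of the 18 sterol enzymes, 2 were lower by at least 1.5-fold in some cell classes and higher by at least 1.5-fold in another. The 6 others with ratios on both sides of 1 (Acat2, Mvk, Fdft1, Ebp, Sc5d and Dhcr7) did not reach that fold on the higher side. Pmvk had ratios of 0.387 in acinar-like and 0.551 in mesenchymal-like cells and of 1.58 in endothelial-like cells, where it had 41 UMIs in the knockout and 42 in the control library. Nsdhl, which lies on the X chromosome, had ratios of 0.395 in acinar-like, 0.542 in ductal-like and 0.493 in mesenchymal-like cells and of 1.5 in endocrine-like cells, on 26 UMIs in the knockout and 35 in the control library. The counting interval of that endocrine ratio, given above, includes 1. The median ratio of all genes in endocrine-like cells was 1.19. These differences between classes were not tested, because each group is 1 library.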

How the results depend on the processing

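No paired analysis was possible because each group is 1 library, and leaving out a replicate was not possible for the same reason. A ratio is taken as close to the reported one when it lay within the 95% counting interval of that ratio, and a count when it was within 1.5 times; all others moved. Of the alternative values of the summed ratios and counts, 126 stayed close and 25 moved. A change of direction could be scored only for summed ratios past 1.5-fold, not for counts, and 0 were scored so. Settings were varied only for acinar-like, ductal-like, endocrine-like and mesenchymal-like cells, and the values of the other classes were not checked in this way. In these classes all summed ratios stayed below 1 in every setting, the highest being 0.971 for fatty acid enzymes in endocrine-like cells. In acinar-like cells the sterol ratio of 0.340 became 0.308 with dominant transcripts out of the total, 0.436 in the shared clusters, 0.295 when divided by the median ratio of all genes and 0.316 without the member with most UMIs. The acinar fatty acid ratio of 0.373 became 0.338, 0.696, 0.324 and 0.595 under those settings in the same order, 0.420 with cells thinned to 2000 UMIs and 0.406 as a mean over cells. In ductal-like cells the sterol ratio of 0.531 became 0.581 after thinning and 0.558 without its top member, and the fatty acid ratio of 0.835 became 0.935 without Scd2. In endocrine-like cells the sterol ratio of 0.867 became 0.756 without dominant transcripts in the total and 0.727 when divided by the median, and the fatty acid ratio of 0.911 became 0.794 and 0.764. In mesenchymal-like cells a Leiden resolution of 0.5 gave 0.363 for sterol and 0.582 for fatty acid enzymes, with fewer cells in the class. Of the counts of lower members, the acinar 26 became 14 after thinning, which also left fewer members with enough UMIs, the ductal 18 became 8 at 2-fold, and the endocrine 6 became 3 with at most 5% mitochondrial UMIs, 10 after thinning, 13 when divided by the median and 1 at 2-fold. Without dominant transcripts in the total, the share of all endocrine-like genes past the fold was 10.0% lower and 11.8% higher, against 6.18% and 21.7%; in acinar-like cells it was 12.7% and 22.1%, against 9.14% and 26.8%. Of single members, 723 values stayed close, 40 moved and 1 changed direction: Srebf1 in acinar-like cells had a ratio of 0.622 and of 1.27 after thinning. The cause of these moves was not tested. Members with few UMIs in the myeloid, endothelial and pericyte classes are limited by depth.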
